A study of Arabidopsis thaliana with 15 samples.

Results

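Protoplasts are plant cells whose wall has been digested away, and this account describes how messenger RNA levels of nuclear genes differed between protoplasted and intact material of the Arabidopsis thaliana shoot apex. The 4 arrays were taken by their titles from the 15 of the series: 2 labelled Protoplast_induced and 2 labelled Uninduced. The other 11 hold sorted cells of the populations CLV3n, CLV3p, FILp and WUSp. All 15 samples were total RNA of plants 24 days old, labelled with biotin and hybridised to Affymetrix arrays. The labels give no genotype, strain, enzyme or duration of digestion for the pair, and Uninduced is read here as material that was not protoplasted. They do not say whether the 2 arrays of a group came from separate plants or digestions, so the p-values measure only the spread between these samples, which may be technical.

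The plant cell wall is a network of cellulose, xyloglucan and pectin that is loosened by expansins and rebuilt by xyloglucan endotransglucosylases. Its digestion with cellulases and pectinases releases wall fragments that cells sense as signs of damage, and calcium influx, jasmonate synthesis and WRKY, AP2/ERF and zinc finger transcription factors are known parts of the early response to wounding and to such fragments. Cell sorting depends on protoplasts, so genes that respond to their preparation are commonly set aside when expression in sorted cells is read.

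The 3 genes taken as signs of wall removal and handling were far higher in both protoplasted arrays. ORA47, an AP2/ERF activator of jasmonate synthesis genes, had signals of 3229 and 2853 against 86.0 and 73.5, which is 5.25 ± 0.15 higher on the log2 scale (± SE, 2 arrays a group; adjusted p = 2.05e-09). STZ, a zinc finger repressor induced by stress, had 2581 and 2204 against 132 and 48.6, a difference of 4.90 ± 0.52 (adjusted p = 0.00643). CML37, a calmodulin-like calcium sensor, had 1502 and 1461 against 5.29 and 10.6 (adjusted p = 5.37e-08). The Uninduced signals of CML37 lie under 19.2, a floor set at the 20th percentile of the pair's values, and its difference of 7.63 became 6.27 with all signals raised to that floor. Signals here are MAS5 intensities in the order replicate 1 and 2, protoplasted against Uninduced, and differences are means of log2 signals, protoplasted minus Uninduced.

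Median signals were 199.9 and 196.6 on the protoplasted arrays against 190.7 and 183.3 on Uninduced. The hybridisation controls bioC and cre had 803 and 728 against 643 and 704, and 8696 and 8540 against 7353 and 7454. Both protoplasted arrays were thus above both Uninduced arrays in each of these values. The Spearman correlation was 0.987 within the protoplasted pair, 0.982 within Uninduced and 0.926 to 0.938 between the groups. It was taken over probe sets, which share samples and are no replicates. The log2 ratio of 3′ to 5′ actin control signals, a sign of RNA integrity, moved with the group: it was 3.36 and 3.43 on the protoplasted arrays and 2.75 and 2.44 on Uninduced. For ubiquitin the ratio was 1.67 and 1.71 against 1.77 and 1.61, and for GAPDH 1.09 and 0.965 against 1.097 and 0.812. The part of RNA integrity in the results below was not tested. Transcripts encoded in the organelles were nearly all called higher (58 of 62 plastid and 19 of 19 mitochondrial probe sets, medians of 1.54 and 1.92), and they are set aside here. Their part in the levels of nuclear transcripts was not tested.

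None of the tested markers of the cell types that apex material could hold passed the test. CLV3, the peptide of the stem cells, had 149 and 111 against 94.9 and 101 (adjusted p = 0.316), and PTL and LAS, genes of organ boundaries, had differences of 0.25 and -0.56 (adjusted p = 0.324 and 0.0845). YAB5 and YAB3 of lateral organs had -0.76 and -0.48 (adjusted p = 0.0738 and 0.12), and CR4 of the epidermis had -0.42 (adjusted p = 0.0615). Summed signals over each set of markers were 266 and 215 against 385 and 331 for the 2 lateral organ genes, 457 and 407 against 571 and 579 for CR4, and 54.0 and 43.7 against 129 and 70.4 for the stomatal genes SPCH, MUTE and FMA. SPCH, MUTE, FMA, the trichome gene TRY and the tapetum gene AMS lay too low to be tested. Markers fixed for phloem, xylem, mesophyll and flower have no probe set of their own in the gene table used here. In these bulk samples fewer cells of a type and less RNA per cell cannot be told apart.

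Of 13911 probe sets tested, 1463 (10.5%) were called higher and 1589 (11.4%) lower after protoplasting, or 21.9% in either direction, at an adjusted p under 0.05 by limma. The directions differed in size. At least 2-fold differences were called for 516 higher (3.71%) and 153 lower (1.1%), and at least 4-fold for 199 higher and 1 lower, or 199 and 0 with the floor. Arrays of the groups did not overlap for 63.5% of all tested probe sets, so the absence of overlap for a single gene says little by itself. These counts include the organelle transcripts. Of those, 52 plastid and 18 mitochondrial probe sets were called at least 2-fold higher and 0 lower. Among 7479 tested nuclear probe sets with 1 gene, 735 were called higher (9.83%) and 740 lower (9.89%). By at least 2-fold 200 of them were higher and 64 lower, and by at least 4-fold 75 were higher and 0 lower. The share of calls that were higher was 47.9% on the values as deposited, 34.1% with each array centred on its median and 44.8% after quantile normalization. Fitted with all 15 arrays, where the sorted populations set most of the spread, 403 were called higher and 275 lower, and 107 of the 158 genes considered for naming lost their call.

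**Figure D1:**
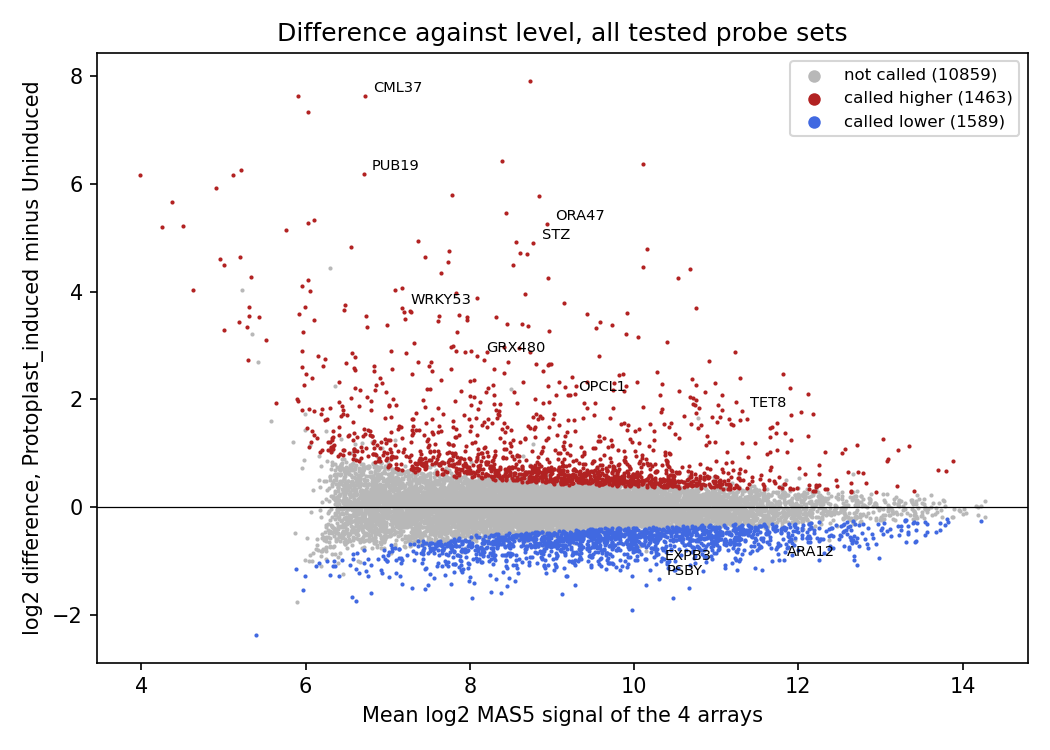
Log2 difference between Protoplast_induced and Uninduced (vertical axis) against the mean log2 MAS5 signal of the 4 arrays (horizontal axis) for 13911 tested probe sets. Red points (1463) were called higher and blue points (1589) lower, and the red points extend much farther from the line at 0 than the blue ones.

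The genes with the strongest rises mostly had low signals in intact tissue, which a ranking by rise favours. The 12 nuclear genes with the largest floored difference included ORA47, STZ and CML37 and the U-box ubiquitin ligase gene PUB19, and the other 8 carry a locus name only in the annotation used here. AT1G19210 had signals of 3397 and 2846 against 43.4 and 30.1, a difference of 6.43 ± 0.20 (adjusted p = 2.96e-09), and AT3G02840 had 1682 and 1592 against 35.3 and 24.4, a difference of 5.80 ± 0.22 (adjusted p = 9.72e-09). Both genes were high in both protoplasted arrays and near the floor in both others. A different kind of riser was already measured in intact tissue: AT1G18740 went from 246 and 228 to 5261 and 5122 (adjusted p = 1.61e-09), and AT4G29780 from 305 and 153 to 6089.8 and 5917 (adjusted p = 0.000149). The differences of AT3G48650, AT4G27654, AT4G27657 and AT3G10930 were 4.94, 4.76, 4.83 and 4.55. Each of the 12 calls held in all 13 alternative settings.

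The calcium and wound list had 6 tested members of 10 measured, and all 6 were higher, with a median of 5.08 against 0.00158 over all tested probe sets. The Uninduced signals of CML37, CML38 and CML23 lay under the signal needed for a test, 80.7 to 96.5 by array. These genes were thus tested only because of their high protoplasted signals. Without a filter on signal 5 members were called higher, with a median of 3.47. Besides the 3 genes above it holds CML38, a calcium sensor related to CML37, with 1026 and 795 against 33.7 and 58.5 and a difference of 4.35 ± 0.27 (adjusted p = 1.36e-06). CML23 had 226 and 244 against 3.79 and 3.94, a difference of 5.92 that became 3.61 with the floor (adjusted p = 9.14e-06). The list was chosen with the response of these arrays known.

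**Figure D2:**
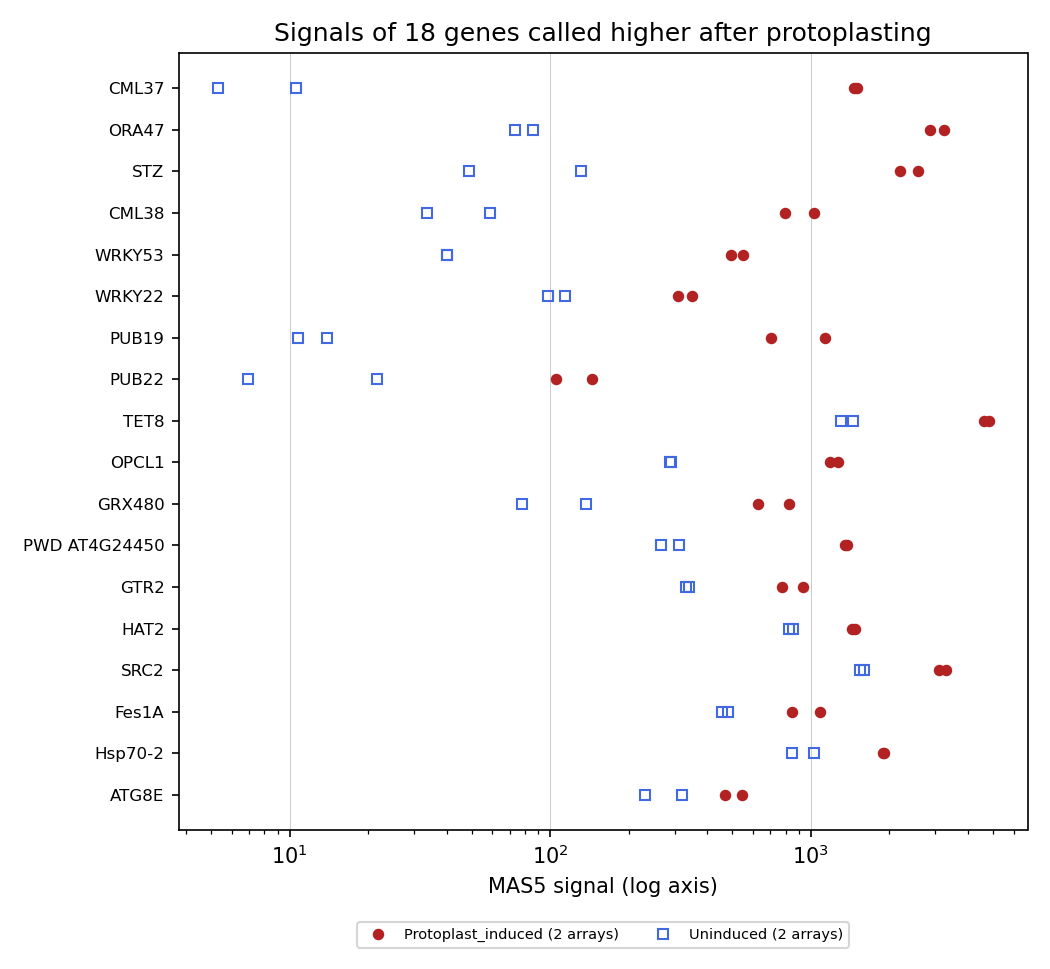
MAS5 signal on a log axis (horizontal) of 18 genes called higher (vertical), with 1 filled circle for each Protoplast_induced array and 1 open square for each Uninduced array. The circles lie to the right of both squares for every gene shown, and the distance between them is widest for CML37 and PUB19.

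Among transcription factors, WRKY53, ORA47 and STZ rose strongly, while most measured factors did not pass the test. ORA47 was the 1 AP2/ERF gene called higher of 5 tested, with 1 lower and a list median of -0.37. STZ was the 1 zinc finger gene called higher of 2 tested, with 1 lower. Both were taken as markers beforehand, so their rise says nothing further about those families. Over 7 families 51 genes were tested, of which 8 were higher and 3 lower, with a median of 0.09. That is 21.6% called in either direction, against 21.9% of all tested probe sets. These counts became 5 higher and 2 lower without Protoplast_induced replicate 1 and 7 higher and 5 lower without Uninduced replicate 1, or 4 to 10 higher and 0 to 5 lower over all 13 alternatives. WRKY53, a factor of senescence and defence, had 549.7 and 494 against 40.1 and 40.3, a difference of 3.70 ± 0.22 (adjusted p = 5.26e-07). WRKY22, which acts in the response to bacterial flagellin, had 309 and 349.6 against 97.9 and 114, a difference of 1.64 ± 0.21 (adjusted p = 0.000207). Both WRKY genes were low in intact tissue and high in both protoplasted arrays, and the other 2 of the 4 tested WRKY genes were not called. The Uninduced signals of WRKY53 lay under the signal needed for a test, so it was tested only because of its protoplasted signals. The WRKY list had 1 to 2 higher and 0 lower over all 13 alternatives.

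Rises in the bZIP family were smaller in size. bZIP44, a factor of the S group whose translation is sensitive to sucrose, rose by 0.71 ± 0.13 from signals that were already high (3382 and 3032 against 2179 and 1770.0; adjusted p = 0.00236), and 2 of 14 tested bZIP genes were higher and 0 lower (14.3% called). None of 15 bHLH genes was called, with differences from -0.33 to 0.33. Among the lower factors, JKD, a zinc finger protein of root patterning, had 53.1 and 94.4 against 133 and 195 (adjusted p = 0.0253), and PUCHI, an AP2/ERF factor of organ initiation and floral meristems, had 126 and 155 against 213 and 267 (adjusted p = 0.0278). The calls of JKD and PUCHI ended without Protoplast_induced replicate 1 (adjusted p = 0.12 and 0.159) and without Uninduced replicate 2 (adjusted p = 0.152 and 0.128). Called in the bZIP list were 1 higher and 1 lower without Protoplast_induced replicate 1 or without Protoplast_induced replicate 2, 2 higher and 1 lower without Uninduced replicate 1 and 3 higher and 1 lower without Uninduced replicate 2, or 0 to 3 higher and 0 to 2 lower over all 13 alternatives. In the AP2/ERF list they were 1 higher and 0 lower without Protoplast_induced replicate 1 and 2 higher and 1 lower without Uninduced replicate 2, or 1 to 2 higher and 0 to 2 lower over all 13 alternatives. In the bHLH list they were 0 higher and 1 lower without Uninduced replicate 1, or 0 higher and 0 to 1 lower over all 13 alternatives.

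A few signalling genes rose, and several of the lists had no member called higher. Over 12 lists 104 genes were tested, of which 11 were higher and 9 lower, with a median of -0.03 (19.2% called, near the 21.9% of all tested probe sets). These counts became 7 higher and 6 lower without Protoplast_induced replicate 1, 6 higher and 6 lower without Protoplast_induced replicate 2 and 9 higher and 14 lower with each array centred on its median, or 4 to 14 higher and 3 to 14 lower over all 13 alternatives. PUB19 and PUB22, U-box ubiquitin ligases that restrain drought and immune signalling, had 1133 and 701 against 13.9 and 10.7 and 145 and 105 against 21.6 and 6.94. Their differences were 6.19 ± 0.31 (adjusted p = 9.06e-08) and 3.33 ± 0.56 (adjusted p = 0.00183), or 5.53 and 2.60 with the floor, and the other 3 of 5 tested U-box genes were not called. The Uninduced signals of PUB19 and PUB22 lay under the signal needed for a test, 80.7 to 96.5 by array. Both were thus tested only because of their high protoplasted signals. UBC29, a ubiquitin-conjugating enzyme, had 278 and 300.5 against 158 and 159, a difference of 0.87 ± 0.19 (adjusted p = 0.00756). Of 10 tested genes of its kind 1 was higher and 1 lower (20% called, near the 21.9% of all tested probe sets). None of 12 ubiquitin-specific proteases was called. No receptor kinase of 10 tested was called, with differences from -0.42 to 0.57. The call of UBC29 ended without Protoplast_induced replicate 2 (adjusted p = 0.0503). Called in the U-box list were 2 higher and 1 lower without Uninduced replicate 2, or 1 to 2 higher and 0 to 1 lower over all 13 alternatives. In the conjugating enzyme list they were 1 higher and 0 lower without Protoplast_induced replicate 1, 0 higher and 0 lower without Protoplast_induced replicate 2, 2 higher and 0 lower without Uninduced replicate 1 and 2 higher and 1 lower without Uninduced replicate 2, or 0 to 3 higher and 0 to 1 lower over all 13 alternatives. In the ubiquitin-specific protease list they were 0 higher and 1 lower without Uninduced replicate 2, or 0 higher and 0 to 1 lower over all 13 alternatives. In the receptor kinase list they were 1 higher and 0 lower without Uninduced replicate 2, or 0 to 1 higher and 0 to 2 lower over all 13 alternatives.

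RALFL33, a peptide of the RALF family, whose members bind receptor kinases that sense the wall, had 245 and 316 against 120.3 and 165 (adjusted p = 0.0103), and 2 of 9 tested peptide genes were higher and 0 lower (22.2% called). The IQD proteins bind calmodulin and associate with microtubules, and iqd33 had 170.2 and 177 against 63.1 and 88.5, a difference of 1.22 ± 0.27 (adjusted p = 0.00761). Of 12 tested IQD genes 2 were higher and 1 lower (25% called, near the 21.9% of all tested probe sets). The call of RALFL33 ended without Protoplast_induced replicate 2 (adjusted p = 0.067). Called in the peptide list were 1 higher and 0 lower without Protoplast_induced replicate 1, 0 higher and 0 lower without Protoplast_induced replicate 2 and 1 higher and 1 lower without Uninduced replicate 1, or 0 to 2 higher and 0 to 1 lower over all 13 alternatives. In the IQD list they were 1 higher and 0 lower without Protoplast_induced replicate 1 or without Protoplast_induced replicate 2 and 2 higher and 0 lower without Uninduced replicate 2, or 0 to 2 higher and 0 to 2 lower over all 13 alternatives.

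Membrane and trafficking genes moved both ways. The tetraspanin TET8, a membrane protein found on plant extracellular vesicles, had 4602 and 4823 against 1447 and 1305, a difference of 1.78 ± 0.11 (adjusted p = 6.6e-07). TET7 of the same family went the other way, with 578 and 587 against 1028 and 1072 and a fall by 0.85 ± 0.13 (adjusted p = 0.000783). VPS22, a subunit of the ESCRT machinery that sorts membrane proteins for the vacuole, had 1794 and 1739 against 1185 and 1022 (adjusted p = 0.0027), and 2 of 11 tested ESCRT genes were higher and 0 lower (18.2% called, against 21.9% of all tested probe sets). The PRA1 proteins, which act with Rab GTPases in vesicle traffic, were lower in 4 of 8 tested members and higher in 0, with a median of -0.70. That is 50% lower, against 11.4% of all tested probe sets. Signals of PRA1.B1 were 651 and 647 against 1062 and 1164, a fall by 0.78 ± 0.13 (adjusted p = 0.00149). PRA7 had 212 and 200.4 against 359 and 365 (adjusted p = 0.00643), PRA1.A1 had 396 and 369 against 623 and 596 (adjusted p = 0.00679) and PRA1.B4 had 113 and 157 against 223 and 262 (adjusted p = 0.0197). Both protoplasted arrays lay under both Uninduced arrays for these 4 genes, and the groups did not overlap for 63.5% of all tested probe sets. The call of PRA1.B4 ended without Protoplast_induced replicate 1 (adjusted p = 0.149) and without Uninduced replicate 2 (adjusted p = 0.0849). The PRA1 list had 0 higher and 2 to 5 lower over all 13 alternatives. Called in the ESCRT list were 1 higher and 0 lower without Protoplast_induced replicate 1 or without Protoplast_induced replicate 2 or without Uninduced replicate 1, or 0 to 3 higher and 0 lower over all 13 alternatives. The tetraspanin list had 1 to 2 higher and 1 lower over all 13 alternatives.

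Wall genes fell more often than they rose, and the falls were small. Of 68 tested genes on 12 lists, 6 were higher and 13 lower, with a median of -0.06. The lower genes are 19.1% of those tested, against 11.4% of all tested probe sets, and the higher ones 8.82%, against 10.5%. The counts were 3 higher and 8 lower without Protoplast_induced replicate 1, 2 higher and 8 lower without Protoplast_induced replicate 2, 3 higher and 13 lower without Uninduced replicate 2 and 3 higher and 17 lower with each array centred on its median, or 1 to 8 higher and 3 to 17 lower over all 13 alternatives. Expansins, which loosen the wall without cutting it, had 3 lower and 0 higher of 7 tested (42.9% lower, against 11.4%). EXPB3 had 841 and 861 against 1826 and 1738, a fall by 1.07 ± 0.12 (adjusted p = 9e-05), and EXPA4 had 404 and 392 against 624 and 638, a fall by 0.66 ± 0.14 (adjusted p = 0.00655). EXLA1 of the expansin-like group had 167 and 194 against 16.2 and 87.8, a difference of 2.25 that did not pass (adjusted p = 0.0874), and its Uninduced arrays differed widely. Called in the expansin list were 1 higher and 3 lower without Uninduced replicate 1 and 1 higher and 2 lower without Uninduced replicate 2, or 0 to 1 higher and 0 to 3 lower over all 13 alternatives.

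Further falls were of enzymes of wall turnover and of the apoplast. GH9B13, a family 9 glucanase, had 3621 and 3452 against 6029.9 and 5095 (adjusted p = 0.00137), and PRXR1, a class III peroxidase, had 8512 and 7744 against 12762 and 12647 (adjusted p = 0.000194). ARA12, a secreted subtilase known for its role in seed mucilage, had 2355 and 2592 against 5108 and 4655, a fall by 0.98 ± 0.11 (adjusted p = 6.54e-05), and SBT1.3 of the same family had 4417 and 4739.7 against 7336 and 5990.2 (adjusted p = 0.00519). TBL23, one of the trichome birefringence-like proteins, a family of wall polysaccharide acetyltransferases, had 440.3 and 475 against 646 and 750.0 (adjusted p = 0.0123). Both protoplasted arrays lay under both Uninduced arrays for these 5 genes, where 63.5% of all tested probe sets showed no overlap of the groups. The glucanase list had 1 lower and 0 higher of 6 tested, and the peroxidase list 1 lower and 0 higher of 2. Subtilases had 2 lower and 1 higher of 7, the higher one being SBT3.12. The trichome birefringence-like proteins had 2 lower and 1 higher of 14, the higher one being TBL39. Of the latter list 21.4% were called, against 21.9% of all tested probe sets. Adjusted p was 0.0488 for SBT3.12 and 0.033 for TBL39. Both calls ended with median centring, with plain eBayes, without a filter and in the fit of all 15 arrays. The call of TBL23 ended without Protoplast_induced replicate 1 (adjusted p = 0.0783).

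The serine carboxypeptidase-like genes split, with 3 higher and 2 lower of 14 tested. That is 21.4% higher and 14.3% lower, against 10.5% and 11.4% of all tested probe sets. Of these, scpl31 had 257 and 274 against 65.5 and 134, a difference of 1.50 ± 0.31 (adjusted p = 0.00735), and SCPL32 had 103 and 100.3 against 7.18 and 32.8, a difference of 2.73 ± 0.65 or 2.01 with the floor (adjusted p = 0.015). The Uninduced signals of SCPL32 lay under the signal needed for a test, so it was tested only because of its protoplasted signals. In contrast scpl25 had 2681 and 3159.6 against 4576 and 4818 and fell by 0.69 ± 0.11 (adjusted p = 0.00112). XTH19, a xyloglucan endotransglucosylase, was the one of 4 tested genes of its family called higher, with 111 and 120.3 against 59.6 and 49.1 (adjusted p = 0.0244). XTH19 likewise entered the test only through its protoplasted signals. Its relative XTH18 had 109 and 67.2 against 4 and 3.29 and was not tested, because too few of its signals passed the filter. No pectin enzyme of 4 tested, and no cellulose-synthase-like gene of 5, was called. The call of XTH19 ended without Protoplast_induced replicate 1 (adjusted p = 0.0851), without Protoplast_induced replicate 2 (adjusted p = 0.131) and without Uninduced replicate 2 (adjusted p = 0.0717). Called in the carboxypeptidase list were 2 higher and 1 lower without Protoplast_induced replicate 1 or without Protoplast_induced replicate 2, or 0 to 3 higher and 1 to 3 lower over all 13 alternatives. In the xyloglucan list they were 0 higher and 0 lower without Protoplast_induced replicate 1 or without Protoplast_induced replicate 2 or without Uninduced replicate 2, or 0 to 1 higher and 0 lower over all 13 alternatives. In the pectin enzyme list they were 0 higher and 1 lower without Uninduced replicate 1, or 0 higher and 0 to 1 lower over all 13 alternatives. In the cellulose-synthase-like list they were 1 higher and 0 lower without Uninduced replicate 1, or 0 to 1 higher and 0 lower over all 13 alternatives.

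Of 41 tested genes of hormones and related responses, 5 were higher and 2 lower (17.1% called against 21.9%). The 41 include 11 dehydration and cold proteins, which hold 3 of the 5 higher genes and 1 of the 2 lower ones. The higher share is 12.2%, against 10.5% of all tested probe sets. Over all 13 alternatives they were 3 to 6 higher and 0 to 3 lower. OPCL1, a CoA ligase that prepares a jasmonate precursor for beta-oxidation, had 1269.7 and 1182 against 289.8 and 289, a difference of 2.08 ± 0.14 (adjusted p = 1.05e-06). It was the 1 member called of 6 tested jasmonate genes. DGL, a lipase gene on that list, had 39.4 and 57.4 against 4.99 and 17.8 and was not tested, and the thionin genes THI2.1 and THI2.2, targets of jasmonate, had differences of 0.60 and 0.63 (adjusted p = 0.706 and 0.19). Called in the jasmonate list were 2 higher and 1 lower without Protoplast_induced replicate 2, or 1 to 2 higher and 0 to 1 lower over all 13 alternatives.

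The list of dehydration and cold proteins had 3 higher and 1 lower of 11 tested. That is 27.3% higher and 9.09% lower, against 10.5% and 11.4% of all tested probe sets. SRC2, a small protein with a C2 domain, had 3113 and 3295 against 1543 and 1605, a difference of 1.03 ± 0.11 (adjusted p = 5.67e-05), and the dehydrin COR47 had 429 and 314 against 158 and 177 (adjusted p = 0.00235). RD2 had 1971 and 2126 against 3017 and 2978 and fell by 0.55 ± 0.11 (adjusted p = 0.0041). HAT2, an auxin-induced homeodomain factor, had 1434 and 1478 against 854 and 827 (adjusted p = 0.000866) and was the 1 auxin gene called of 14 tested. No cytokinin gene of 3 tested was called, and SPY, a repressor of gibberellin signalling, was the 1 gibberellin gene called of 7, with 986 and 991 against 1386 and 1436 (adjusted p = 0.0108). The call of SPY ended without Protoplast_induced replicate 1 (adjusted p = 0.079) and without Protoplast_induced replicate 2 (adjusted p = 0.0674). Called in the dehydration and cold list were 3 higher and 2 lower without Uninduced replicate 1, or 1 to 4 higher and 0 to 2 lower over all 13 alternatives. In the auxin list they were 1 higher and 1 lower without Protoplast_induced replicate 2, or 1 higher and 0 to 1 lower over all 13 alternatives. In the gibberellin list they were 0 higher and 0 lower without Protoplast_induced replicate 2, or 0 higher and 0 to 1 lower over all 13 alternatives.

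In metabolism, 12 of 109 tested genes were higher and 18 lower, with a median of -0.02. Together they are 27.5% of the tested genes, against 21.9% of all probe sets. These counts became 4 higher and 10 lower without Protoplast_induced replicate 1 and 7 higher and 12 lower without Protoplast_induced replicate 2, or 2 to 15 higher and 1 to 19 lower over all 13 alternatives. AT4G24450, which the annotation lists as PWD with GWD2 among its synonyms and which belongs to the glucan water dikinases that phosphorylate starch, had 1352 and 1376 against 266 and 311, a difference of 2.25 ± 0.14 (adjusted p = 7.26e-07). APL4, a large subunit of the enzyme that makes the starch precursor ADP-glucose, had 332 and 385 against 200.1 and 226 (adjusted p = 0.0122), and 2 of 7 tested starch genes were higher and 0 lower (28.6% called). GTR2, a glucosinolate transporter, had 774 and 936 against 339.5 and 331, a difference of 1.34 ± 0.15 (adjusted p = 8.33e-05), and it was the 1 gene called of 5 tested on the glucosinolate list (20% called, against 21.9%). UGT74B1, which makes the glucosinolate core and was counted with the UDP-glycosyltransferases, had 2306 and 1717 against 1092 and 1300.1 (adjusted p = 0.00645). The call of UGT74B1 ended without Protoplast_induced replicate 1 (adjusted p = 0.0641). The call of APL4 ended without Protoplast_induced replicate 2 (adjusted p = 0.101). Called in the starch list were 1 higher and 0 lower without Protoplast_induced replicate 2, or 1 to 3 higher and 0 lower over all 13 alternatives. In the glucosinolate list they were 1 higher and 1 lower without Protoplast_induced replicate 2 or without Uninduced replicate 1, or 0 to 1 higher and 0 to 1 lower over all 13 alternatives.

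Redox genes moved both ways. GRX480, a glutaredoxin that binds TGA transcription factors, had 826 and 627 against 137 and 77.9, a difference of 2.80 ± 0.27 (adjusted p = 8.37e-05). ROXY1, a glutaredoxin of the same plant-specific class that acts in petal development, had 654 and 585 against 1261 and 1077 and fell by 0.91 ± 0.14 (adjusted p = 0.000801). The list had 4 higher and 5 lower of 16 tested. That is 25% higher and 31.2% lower, against 10.5% and 11.4% of all tested probe sets. Of the lower members SAPX, the ascorbate peroxidase of the chloroplast stroma, had 639 and 566 against 946 and 1164 (adjusted p = 0.0026), and TRXF2, a chloroplast thioredoxin, had 753 and 992 against 1315 and 1506 (adjusted p = 0.00709). Among the higher ones, SRX, a sulfiredoxin that repairs peroxiredoxins, had 384 and 404 against 257 and 250.2 (adjusted p = 0.017). GSTU23, a glutathione transferase, had 200.4 and 174 against 98.5 and 86.4 (adjusted p = 0.0107). The calls of TRXF2 and GSTU23 ended without Protoplast_induced replicate 1 (adjusted p = 0.0835 and 0.0772). The call of SRX ended without Protoplast_induced replicate 1 (adjusted p = 0.0688) and without Protoplast_induced replicate 2 (adjusted p = 0.11). Called in the redox list were 1 higher and 2 lower without Protoplast_induced replicate 1 and 2 higher and 4 lower without Protoplast_induced replicate 2, or 1 to 4 higher and 1 to 6 lower over all 13 alternatives.

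Flavonoid enzymes were lower in 4 of 6 tested members and higher in 0, with a median of -0.57 and a highest difference of -0.35. That is 66.7% lower, against 11.4% of all tested probe sets. UF3GT, which adds a sugar to anthocyanins, had 190.0 and 209.7 against 369 and 364, a fall by 0.88 ± 0.17 (adjusted p = 0.00451). UGT78D1, a flavonol rhamnosyltransferase, had 2144 and 1874 against 3239 and 2877 (adjusted p = 0.00394), and CHIL, a chalcone isomerase-like protein, had 923 and 921 against 1262 and 1496 (adjusted p = 0.00928). UGT78D2, the flavonoid glucosyltransferase, had 1243 and 1317 against 1906 and 1593 (adjusted p = 0.028). Of 21 tested UDP-glycosyltransferases, a list that shares UF3GT and both UGT78D genes, 6 were lower and 1 higher. That is 28.6% lower and 4.76% higher, against 11.4% and 10.5%. No cytochrome P450 of 8 tested was called. The call of UGT78D2 ended without Protoplast_induced replicate 1 (adjusted p = 0.177), without Protoplast_induced replicate 2 (adjusted p = 0.0786) and without Uninduced replicate 1 (adjusted p = 0.0857). The flavonoid list had 0 higher and 0 to 5 lower over all 13 alternatives. Called in the UDP-glycosyltransferase list were 0 higher and 3 lower without Protoplast_induced replicate 1 and 1 higher and 3 lower without Protoplast_induced replicate 2, or 0 to 2 higher and 0 to 7 lower over all 13 alternatives. The cytochrome P450 list had 0 to 1 higher and 0 lower over all 13 alternatives.

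**Figure D3:**
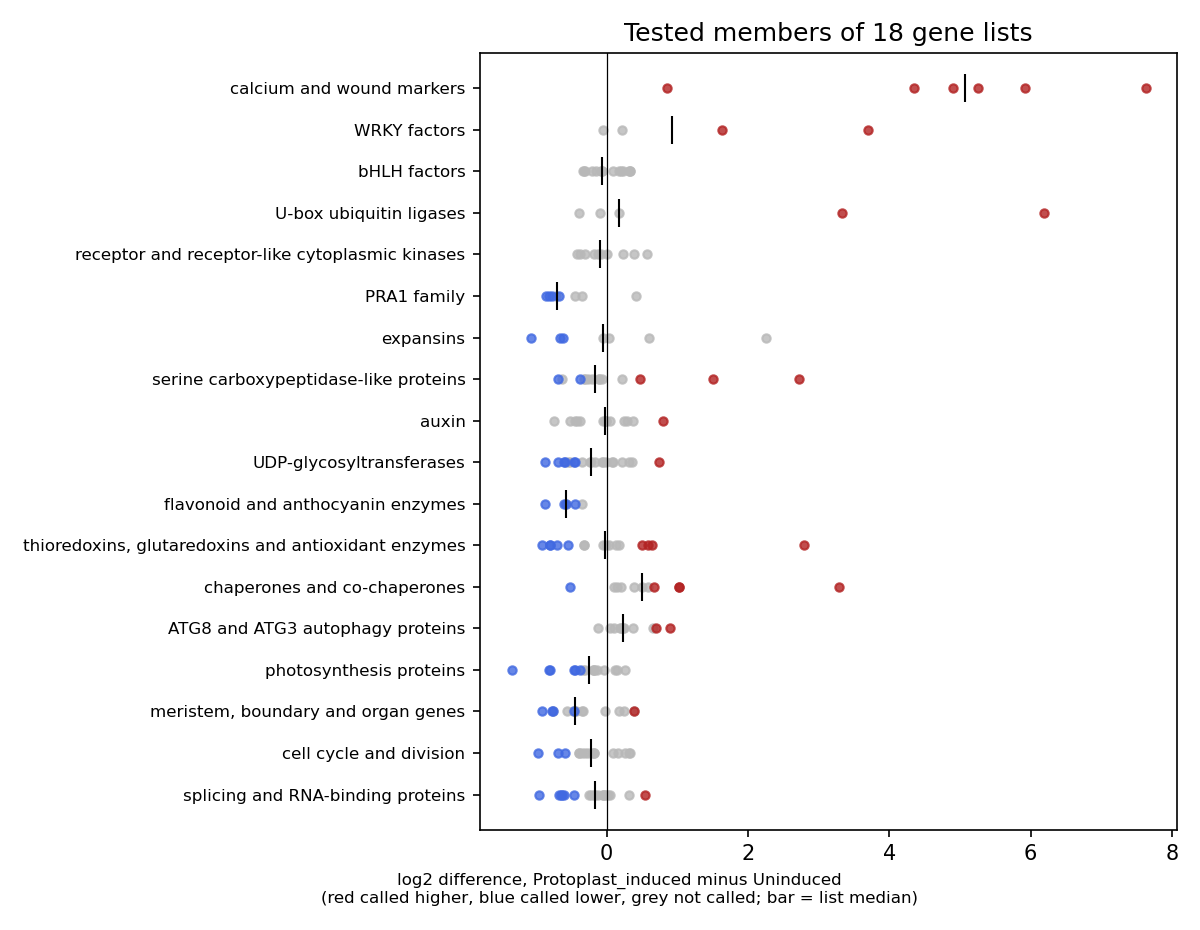
Log2 difference of each tested member (horizontal axis) of 18 gene lists (vertical axis), with members called higher in red, called lower in blue and not called in grey, and a black bar at the list median. All points of the calcium and wound list are red, while the photosynthesis, flavonoid and PRA1 lists hold blue points and no red ones.

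Of the stress lists, 6 of 34 tested genes were higher and 3 lower (26.5% called against 21.9%). The counts were 6 higher and 1 lower without Protoplast_induced replicate 1, 6 higher and 6 lower without Uninduced replicate 1 and 11 higher and 3 lower without Uninduced replicate 2, or 2 to 11 higher and 1 to 6 lower over all 13 alternatives. Of 11 tested chaperones and co-chaperones, 4 were higher and 1 lower, with a median of 0.50. That is 36.4% higher and 9.09% lower, against 10.5% and 11.4% of all tested probe sets. Fes1A, which protects Hsp70 in heat, had 1080.4 and 850.1 against 483 and 458, a difference of 1.03 ± 0.15 (adjusted p = 0.000621), and Hsp70-2 had 1901 and 1889 against 1026 and 846, a difference of 1.02 ± 0.13 (adjusted p = 0.000229). ATHSP22.0, a small heat shock protein of the endoplasmic reticulum, had 101 and 99.1 against 25.7 and 4.09, a difference of 3.29 that became 2.17 with the floor (adjusted p = 0.0151). Its Uninduced signals lay under the signal needed for a test, so it was tested only because of its protoplasted signals. Folding and degradation genes of the endoplasmic reticulum had 0 higher and 2 lower of 12 tested (16.7% called, against 21.9%). The lower ones were DER1, a derlin of protein export from that compartment, with 400.2 and 445 against 819 and 742 (adjusted p = 0.00124), and the calreticulin CRT1b, with 2044 and 2172 against 2878 and 2983 (adjusted p = 0.00882). ATG8 proteins coat the membranes of autophagy, and ATG8E had 542 and 470.4 against 231 and 320.2 (adjusted p = 0.00605) while 2 of 11 tested autophagy genes were higher and 0 lower (18.2% called, against 21.9%). The call of CRT1b ended without Protoplast_induced replicate 1 (adjusted p = 0.0989). Called in the chaperone list were 4 higher and 0 lower without Protoplast_induced replicate 1 and 3 higher and 0 lower without Protoplast_induced replicate 2, or 2 to 5 higher and 0 to 1 lower over all 13 alternatives. In the endoplasmic reticulum list they were 0 higher and 1 lower without Protoplast_induced replicate 1 and 0 higher and 5 lower without Uninduced replicate 1, or 0 higher and 1 to 5 lower over all 13 alternatives. In the autophagy list they were 1 higher and 0 lower without Protoplast_induced replicate 2 and 6 higher and 0 lower without Uninduced replicate 2, or 0 to 6 higher and 0 lower over all 13 alternatives.

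Nuclear genes of photosynthesis, of the meristem and of nuclear processes were called lower more often than higher. Over the growth lists 155 genes were tested, of which 6 were higher and 30 lower, with a median of -0.17. The lower genes are 19.4% of those tested, against 11.4% of all probe sets, and the higher ones 3.87%, against 10.5%. The counts were 3 higher and 16 lower without Protoplast_induced replicate 1, or 1 to 9 higher and 5 to 35 lower over all 13 alternatives. Photosynthesis genes had 6 lower and 0 higher of 16 tested (37.5% lower, against 11.4%), with a median of -0.25. PSBY, a small subunit of photosystem II, had 778 and 803 against 1852 and 2172, a fall by 1.34 ± 0.13 (adjusted p = 2.24e-05). LHCB4.1, an antenna protein, had 1602 and 1548 against 2312 and 3288 (adjusted p = 0.00449), and PSB27, an assembly factor of photosystem II, had 1247 and 1484 against 2022 and 2798 (adjusted p = 0.00579). OTP84, which edits chloroplast transcripts, was the 1 gene called of 11 tested for organelle RNA processing, and it rose, with 379 and 369 against 214 and 181 (adjusted p = 0.00391). Called in the photosynthesis list were 0 higher and 3 lower without Protoplast_induced replicate 1 or without Protoplast_induced replicate 2, or 0 higher and 2 to 8 lower over all 13 alternatives.

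Of 16 tested genes of meristem, boundary and organ identity, 4 were lower and 1 higher. That is 25% lower and 6.25% higher, against 11.4% and 10.5% of all tested probe sets. Besides ROXY1 and PUCHI, TCP15, a growth regulator of organs and internodes, was lower, with 369 and 379.6 against 587 and 683 (adjusted p = 0.00419). PHV, a homeodomain factor of the upper leaf side, had 1100.4 and 871 against 1437 and 1259 (adjusted p = 0.0416), and ULT1, a regulator of meristem size, was the higher one, with 2555 and 2669 against 1840.5 and 2169 (adjusted p = 0.0368). With each array centred on its median 6 were lower and 0 higher, and after quantile normalization 7 were lower and 1 higher. The call of ULT1 ended without Protoplast_induced replicate 1 (adjusted p = 0.13), without Protoplast_induced replicate 2 (adjusted p = 0.204) and without Uninduced replicate 1 (adjusted p = 0.0899). The call of PHV ended without Protoplast_induced replicate 2 (adjusted p = 0.375) and without Uninduced replicate 1 (adjusted p = 0.125). Called in the meristem list were 0 higher and 3 lower without Protoplast_induced replicate 1 or without Protoplast_induced replicate 2 or without Uninduced replicate 1, or 0 to 1 higher and 0 to 7 lower over all 13 alternatives.

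Genes of replication and of the nucleus were also among the lower ones. PRL, the MCM7 subunit of the replicative helicase, had 1537 and 1616 against 2662 and 2405, a fall by 0.68 ± 0.11 (adjusted p = 0.00157), and HTB1, a histone H2B, had 3726 and 3501 against 4970.0 and 5908 (adjusted p = 0.00284). NUP155, a scaffold protein of the nuclear pore, had 837 and 669 against 1357 and 1229 (adjusted p = 0.00262), and PKDM7D, a histone demethylase, had 633 and 649.7 against 1146 and 893 (adjusted p = 0.00866). The RNA-binding proteins AtRZ-1c and RBP45B had 1448 and 1654 against 2541 and 2416 (adjusted p = 0.00197) and 2675 and 2346 against 3865 and 3974 (adjusted p = 0.00158), and their list had 6 lower and 1 higher of 19 tested. ATLIG4, the DNA ligase of end joining, rose, with 699 and 674 against 432 and 418 (adjusted p = 0.0048). Of 19 tested repair genes 2 were higher and 2 lower, or 21.1% called, against 21.9% of all tested probe sets. Cell cycle genes had 3 lower and 0 higher of 16 (18.8% called). Chromatin remodellers and histone modifiers, the list of PKDM7D, had 3 lower and 1 higher of 17 (23.5% called). RNA polymerase and mediator genes had 2 lower and 0 higher of 17 (11.8% called). Of the RNA-binding list 36.8% were called. Called in the RNA-binding list were 0 higher and 4 lower without Protoplast_induced replicate 1, 0 higher and 6 lower without Protoplast_induced replicate 2 and 2 higher and 4 lower without Uninduced replicate 2, or 0 to 2 higher and 2 to 6 lower over all 13 alternatives. In the repair list they were 2 higher and 0 lower without Protoplast_induced replicate 1 or without Protoplast_induced replicate 2, 2 higher and 1 lower without Uninduced replicate 1 and 1 higher and 2 lower without Uninduced replicate 2, or 0 to 2 higher and 0 to 3 lower over all 13 alternatives. The cell cycle list had 0 higher and 0 to 4 lower over all 13 alternatives.

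**Figure D4:**
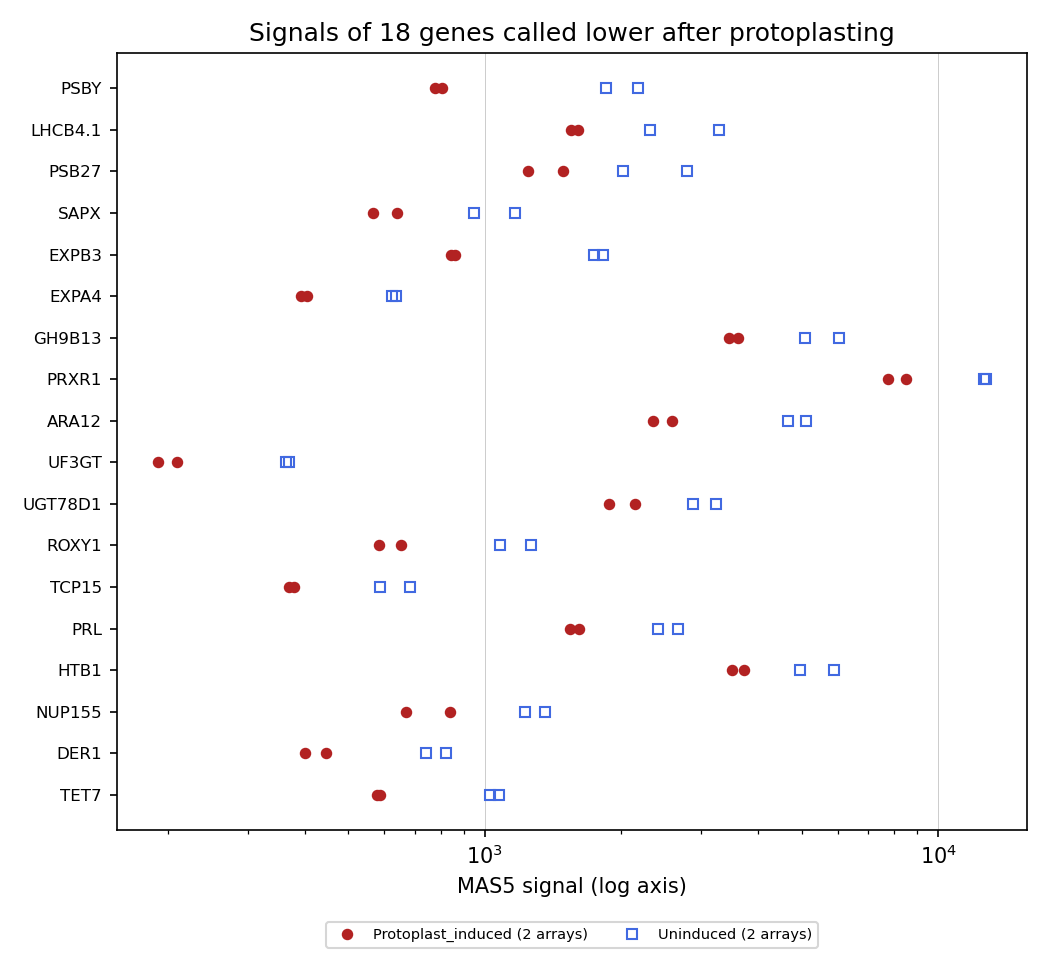
MAS5 signal on a log axis (horizontal) of 18 genes called lower (vertical), with 1 filled circle for each Protoplast_induced array and 1 open square for each Uninduced array. The circles lie to the left of both squares for every gene shown, and the gap is widest for PSBY.

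The largest falls of single genes were also modest, and 11 of the 12 lie in genes with a locus name only. AT5G59170 had signals of 45.9 and 60.8 against 217 and 132, a fall by 1.68 ± 0.32 (adjusted p = 0.00345), and AT5G62210, a much brighter gene, had 929.8 and 999 against 2443 and 3065, a fall by 1.51 ± 0.13 (adjusted p = 1.23e-05). AT3G06170 had 684 and 689 against 2224 and 1567 (adjusted p = 0.000101). In these 3 genes both protoplasted arrays lay under both others, which was a condition for choosing them. The most negative difference, -1.75 for AT1G31710 (adjusted p = 0.0266), came from 88.1 and 32.3 against 144 and 223. The call of AT1G31710 ended without Uninduced replicate 2 (adjusted p = 0.12).

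Genes that rose on protoplasting stood very differently in the 11 arrays of sorted cells, which are set beside the pair as a description because they are other populations of cells and their sorting also uses protoplasts. CML37 had signals of 1619.7 to 4350.2 (median 2650.4) in sorted cells, ORA47 2135 to 5299 (median 3483) and PUB19 696 to 3379 (median 1775). All 11 arrays lay above both Uninduced arrays for these genes, as they did for STZ, WRKY53, GRX480 and OPCL1. TET8 had 11960.3 to 17347 (median 13943), higher on each of the 11 than on both protoplasted arrays. The same held for CML37, STZ, OPCL1 and GRX480, and it did not hold for ORA47, PUB19 and WRKY53.

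For others all 11 sorted arrays lay below both Uninduced arrays. AT4G24450 had 14.1 to 133 (median 43.6), against 1352 and 1376 in the protoplasted pair and 266 and 311 in Uninduced. The carboxypeptidase gene scpl31 had 3.27 to 57.1 (median 26.2), GSTU23 2.52 to 79.2 (median 26.5) and SRX 98.3 to 189 (median 139). GTR2 lay below both Uninduced arrays on 9 of the 11, with 14.3 to 707 (median 82.9). Among the genes that fell, EXPB3 had 140.5 to 983 (median 487) and ARA12 1267 to 4375 (median 2801), under both Uninduced arrays on all 11, and PSBY had 576 to 2051 (median 1436), under both on 8. Without Protoplast_induced replicate 1 GSTU23 had an adjusted p of 0.0772 in the pair, and SRX had 0.0688, or 0.11 without Protoplast_induced replicate 2.

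**Figure D5:**
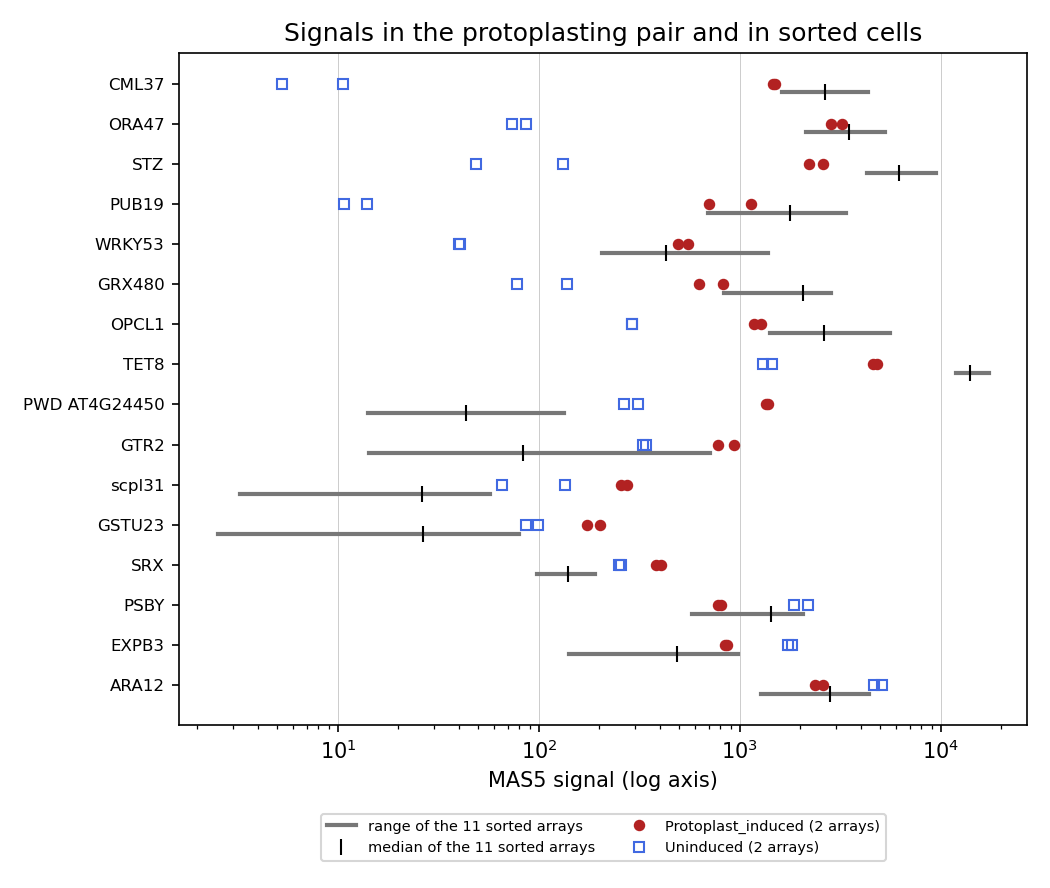
MAS5 signal on a log axis (horizontal) of 16 genes (vertical), with filled circles for the 2 Protoplast_induced arrays, open squares for the 2 Uninduced arrays, and a grey line with a black tick for the range and median of the 11 sorted arrays. The grey lines of the upper 8 genes lie to the right of the squares, while those of AT4G24450 (PWD), scpl31, GSTU23 and SRX lie to the left of them.

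Of the 898 genes on the lists, 557 were tested, and some of the others had large ratios at low signals. UGT73B5, a glycosyltransferase induced by stress, had 76.1 and 59.0 against 7.35 and 5.9, the tetraspanin TET9 had 129 and 90.1 against 33.6 and 21.7 and the dehydrin LTI30 had 118 and 74.1 against 4.81 and 62.4. The 2 Uninduced signals of LTI30 differed widely, and the higher of them, 62.4, lay close to its lower protoplasted signal of 74.1. Both protoplasted arrays were above both Uninduced arrays for UGT73B5, TET9 and LTI30. The groups did not overlap for 63.5% of all tested probe sets, so this says little by itself. AT5MAT, an anthocyanin malonyltransferase, had 42.9 and 19.6 against 82.4 and 101 and lay the other way. A probe set was tested if its signal passed the 40th percentile of its array, between 80.7 and 96.5, on at least 2 of the 4 arrays, so these genes have values and no test.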

How the data were processed

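Total RNA was measured on Affymetrix arrays with 22810 probe sets. The authors deposited an intensity per probe set, the MAS5 signal on its linear scale, with MAS5 as the tool and no version given, per the submitters' processing notes. From these intensities, log2 values of the 4 arrays of the pair were taken without further normalization, after 64 control probe sets were set aside. Groups came from the sample titles. Tested were probe sets whose signal passed the 40th percentile of the array on 2 or more of the 4 arrays. Group means were compared by limma (version 3.58.1, R 4.3.3) through lmFit, followed by eBayes with a variance trend and robust moderation. Tests were two-sided at a threshold of 0.05, adjusted by the Benjamini-Hochberg method over 13911 probe sets, and every adjusted p in the text is of this kind unless another setting is named. Errors are limma's moderated SE. The procedure was tested on simulated data. The number of arrays limits the precision.

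Genes were named from a platform annotation, which gives 1 gene for 13513 probe sets, several for 503 and none for 8730. Of the first kind 13436 were matched to a RefSeq gene table, and 11933 carry a locus name only. A gene with more than 1 probe set is represented by the brightest. A floor at the 20th percentile of the pair's values, a signal of 19.2, served for a floored difference. The genes that could be named were the 12 largest floored rises and the 12 largest falls among called nuclear genes with no overlap between the groups, the called members of each list (at most 4 in each direction), CML37, ORA47 and STZ. The text describes mainly those that kept their call when any 1 array was left out. Outside this rule, after their values were seen, it names CML23 (called, of the calcium and wound list), members of lists that were not called or not tested (EXLA1, THI2.1, THI2.2, XTH18, DGL, UGT73B5, TET9, LTI30 and AT5MAT), marker genes, and FATB, CXE18, AQI and ARL. The members and the 68 gene lists were chosen with earlier results of these data known, and the lists were rewritten after the coverage of the annotation and some values were seen. The symbol FDH was set aside as an epidermis marker because in the annotation it belongs to formate dehydrogenase. Alternatives were quantile normalization, median centring, the floor, 2 other filters, plain eBayes, array weights, all 15 arrays in 1 fit, a replicate block and leaving out each array. Levels in sorted cells are described without a test, and no sequences were used here. Single members of 1 transcription factor family are not reported here.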

Additional observations from a re-analysis of the deposited data

How the results depend on the processing

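No call of the 158 genes considered for naming changed direction in any of 13 alternatives that tested it. The filter at the 60th percentile left 42 of them untested, and the other 116 had a value in all 13. Of the 116, 42 kept their call throughout, and of the 42 without a value under that filter 7 kept theirs in the remaining 12. Calls ended for 107 of the 158 in the fit of all 15 arrays, 47 with plain eBayes, 41 without a filter, 14 with median centring, 5 with quantile normalization, 3 with array weights and 0 with the floor, and for 0 of the 116 genes it tested with the stricter filter. With 1 array left out, 56 calls ended without Protoplast_induced replicate 1, 48 without Protoplast_induced replicate 2, 22 without Uninduced replicate 1 and 30 without Uninduced replicate 2. The number of probe sets called, 3052 in all, was 678 in the fit of all 15 arrays (403 higher and 275 lower, of which 84 lower by at least 2-fold) and 1972 with plain eBayes (932 lower). The filter at the 60th percentile tested 9488 probe sets and gave 311 higher and 96 lower by at least 2-fold. Leaving out 1 array gave 1738 to 3336 calls, 841 to 1649 higher and 897 to 1687 lower. The cause of these differences was not tested, except that the stricter filter tests fewer probe sets. Same-numbered arrays deviated from their group means with a correlation of 0.0961, so with 2 pairs the numbers are not taken to pair the arrays. The replicate block gave 3654 calls (1775 higher and 1879 lower) and ended no call of the genes considered for naming. Low signals and 2 arrays per group limit what can be called.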

Other observations

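Some named genes outside the lists were among the largest changes of genes with a symbol, and they were chosen after their values were seen. FATB, the thioesterase that releases saturated fatty acids in the chloroplast, had signals of 909 and 862 against 1566 and 1589 and fell by 0.83 ± 0.12 on the log2 scale (adjusted p = 0.000579). The carboxylesterase CXE18 had 524 and 674 against 1144 and 1463 and fell by 1.12 ± 0.16 (adjusted p = 0.000722), and AQI, listed as an aquaporin interactor, had 722 and 767 against 1504 and 1443 and fell by 0.99 ± 0.12 (adjusted p = 0.000201). Both protoplasted arrays lay under both Uninduced arrays for these 3 genes, which was a condition for choosing them. ARL, a relative of the organ size gene ARGOS, had 944 and 604 against 426 and 313 and rose by 1.05 ± 0.23 (adjusted p = 0.0109). The call of ARL ended without Uninduced replicate 2 (adjusted p = 0.077).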
